A study of Mus musculus with 36 samples.

Results

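Type I interferon-stimulated genes were followed in cultured mouse glia in which RIPK1, a kinase downstream of the TNF receptor, was driven into its active state. The members were a list of 37 gene symbols of known interferon targets, drawn up with earlier results of these data known. All 37 were found among the 15385 genes of the microglial table and passed its filter on low values (10524 genes tested), and 34 were found among the 14551 genes of the astrocyte table and passed there (13842 genes tested). Oas2, Oas3 and Epsti1 were not in the astrocyte table used here.

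RNA-seq was carried out on primary microglia and astrocytes of C57BL/6 mice aged 2 to 4 days, with no genetic change in any group. Mixed glia were grown for 12 days, microglia were taken by CD11b selection and astrocytes from the fraction that was left, so the cells were cultured neonatal glia and not cells sampled from adult brain. All cells were treated for 4 h. The vehicle was DMSO. T/5z was TNF with 5z-7, an inhibitor of the kinase TAK1, and T/S/Z was TNF with a Smac mimetic, which removes cIAP proteins, and the caspase inhibitor zVAD. Nec-1s (N) inhibits the kinase activity of RIPK1 and was given alone or with either stimulus. Microglia were analysed as DMSO, Nec-1s, T/5z, T/5z/N, T/S/Z and T/S/Z/N, with 4 libraries in each of 6 groups, and astrocytes as DMSO, Nec-1s, T/S/Z and T/S/Z/N, with 3 libraries in each of 4 groups. Replicates came from cells of separate litters.

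Type I interferons (interferon-β and the interferon-α family) signal through the receptor IFNAR, whose kinases JAK1 and TYK2 phosphorylate STAT proteins. STAT2 and IRF9 are subunits of the complex ISGF3 that then forms, which binds repeats of the letters GAAA near the start of its targets. The targets include sensors of viral RNA, enzymes that act on viral RNA or its translation, the ubiquitin-like modifier ISG15 and the ISGF3 subunits themselves. Several of them can also be induced without interferon, through IRF1, IRF3 or NF-κB. Microglia are known for a standing expression of part of this program, which is seen to increase in ageing and in neurodegeneration models.

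Values were log2(FPKM + 1), where FPKM is a count of fragments divided by gene length and library size, and every level and change given here is on that log2 scale unless FPKM is named. Changes were tested with limma with the replicate number as a block, on the libraries of the compared groups only, and p-values were adjusted over all genes tested by the Benjamini-Hochberg method. A gene was called when its fold change exceeded 1.5 and its adjusted p was under 0.05. Comparisons with the same vehicle or the same stimulated libraries share those libraries and are not independent of each other. Where groups are said to overlap or not, the share of all genes with separate groups was not counted. Both tables carry a mark named confounded, which they do not define, for 14 of the 37 members in microglia and 14 of 34 in astrocytes. Dtx3l and Parp9 overlap by 682 bases on chromosome 16 on opposite strands, so their values may share reads where strand was not used.

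The labelled cell types matched their markers. Summed over 14 microglial markers, FPKM was 12000 to 14700 in every microglial library. In astrocytes the same sum was between 0.666% and 1.04% of that in DMSO microglia. Summed over 9 astrocyte markers, FPKM was 2920 to 3400 in astrocytes and between 0.169% and 0.538% of the DMSO astrocyte level in microglia. These shares cross tables that were normalized separately, so they are rough and serve only to check the labels. Depth could be estimated only in part, at 39.7 to 42.2 M reads for astrocytes and 21.6 to 29.5 M for replicate 4 of microglia. In bulk libraries, fewer cells of one type and less RNA per cell cannot be told apart.

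Promoter sequences are shown for 5 members on which the comparisons below turn: Ifit1, Isg15 and Rsad2, which were raised by both stimuli in microglia, and Oas3 and Trim25, which were lowered by both. Each run is the 120 bases before the gene start in RefSeq (GRCm38.p6), read 5′ to 3′ on the gene's strand. Capitals mark matches of the interferon response core GAAANNGAA on either strand, and overlapping matches run together. On the opposite strand the core reads as TTC and TTTC around 2 free letters.
Ifit1, chr19:34640769-34640888, plus strand: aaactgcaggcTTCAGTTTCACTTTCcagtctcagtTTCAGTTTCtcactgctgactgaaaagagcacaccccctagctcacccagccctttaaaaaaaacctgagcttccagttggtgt
Isg15, chr4:156200819-156200938, minus strand: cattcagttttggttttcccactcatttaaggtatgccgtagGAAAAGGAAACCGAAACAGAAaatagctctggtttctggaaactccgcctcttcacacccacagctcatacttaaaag
Rsad2, chr12:26456453-26456572, minus strand: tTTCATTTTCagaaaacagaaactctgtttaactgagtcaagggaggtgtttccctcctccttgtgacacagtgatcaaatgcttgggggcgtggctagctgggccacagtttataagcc
Oas3, chr5:120777660-120777779, minus strand: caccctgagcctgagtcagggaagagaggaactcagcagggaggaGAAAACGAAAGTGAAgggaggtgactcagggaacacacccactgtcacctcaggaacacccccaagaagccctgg
Trim25, chr11:88999283-88999402, plus strand: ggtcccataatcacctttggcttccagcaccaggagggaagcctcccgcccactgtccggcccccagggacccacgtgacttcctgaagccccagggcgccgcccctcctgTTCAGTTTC

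Of the 37 members, 28 had a promoter entry, a window of 300 bases from 250 before the start to 50 after it. The core GAAANNGAA was present in 13 of these 28 (46.4%), against 2638 of 27025 promoters of the same length in the whole table (9.76%). The 13 were Ifit1, Ifit3, Isg15, Oas3, Rsad2, Ifi44, Ifih1, Ddx58, Stat2, Bst2, Trim25, Samd9l and Eif2ak2. The κB-type letters GGGNNTTTC, searched on both strands with any overlap allowed, were present in 0 of the 28, against 1368 of all promoters (5.06%). Members with the core included genes that rose with both stimuli (Rsad2) and genes that fell with both (Oas3). Mx1, Mx2, Oas2, Usp18, Dhx58, Rtp4, Parp9, Parp14 and Ifi27 had no entry. Several members lie side by side: the IFIT genes on chromosome 19, Rsad2 and Cmpk2 on chromosome 12 (12751 bases apart), Parp14, Dtx3l and Parp9 on chromosome 16, and on chromosome 5 Oas2 with Oas3 (3244 bases apart) and Oasl2 with Oasl1 (11005 bases apart).

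In vehicle-treated microglia the members were already widely expressed. The median member level per library was 4.60, 4.57, 4.57 and 4.33 in the 4 DMSO libraries. The highest levels belonged to Bst2 (tetherin, which holds budding virions at the membrane), at 9.41, 9.45, 9.47 and 9.61, and to Lgals3bp, a secreted glycoprotein, at 9.40, 9.41, 9.47 and 9.59. Irf7, the factor that amplifies interferon-α transcription, stood near them at 9.23, 9.27, 9.25 and 9.38. Bst2 and Lgals3bp differed by less than the spread between libraries, and Irf7 was below both in each library. The lowest members were Ifi44 (1.74 to 2.13) and the GTPase Mx2 (1.26 to 1.54). DMSO replicate 4 held the lowest value of its group for 19 of the 37 members, Ifit1, Ifit2, Ifit3, Isg15, Ifih1, Rsad2 and Cmpk2 among them. How often it was lowest over all genes was not counted, so whether this is particular to the members is not known. Without replicate 4 the calls described next numbered 16 for T/5z, against 17 with it.

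**Figure D1:**
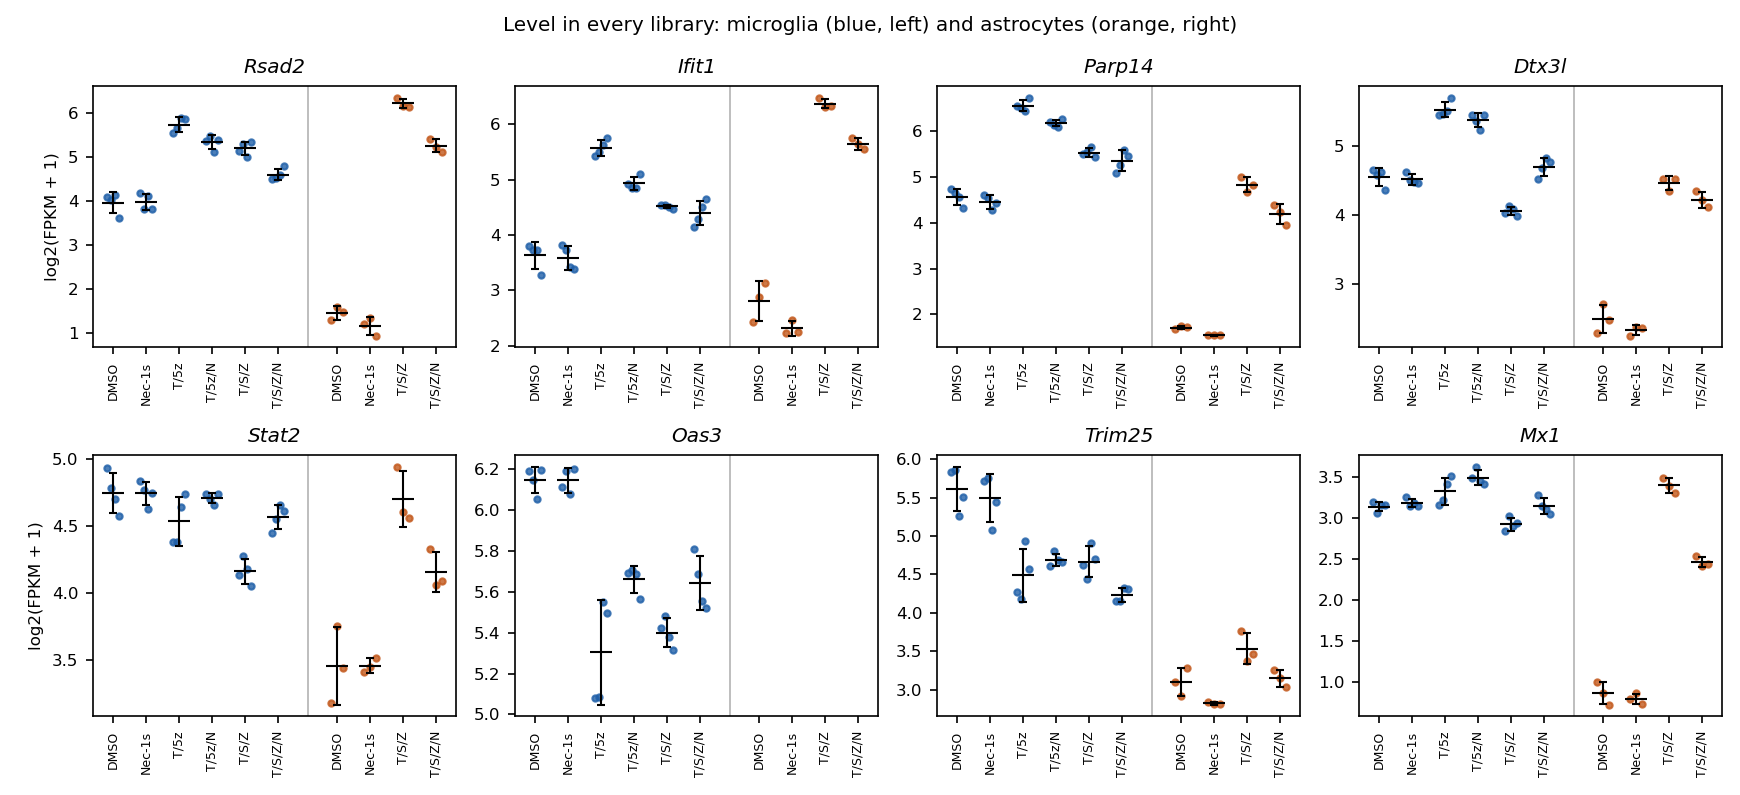
Levels of selected members in every library (y axis, log2(FPKM + 1)) by treatment group (x axis), with a panel for each gene and microglia (blue) left of astrocytes (orange), whose tables were normalized separately; points are libraries, from replicate 1 on the left, and black bars are means ± SD. Rsad2 in astrocytes ran from 1.29 to 1.59 in DMSO and from 6.13 to 6.34 in T/S/Z without overlap, and the astrocyte side of Oas3 is empty because that gene was not in the astrocyte table used.

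Nec-1s on its own did not move a member past the thresholds in either cell type. In microglia 0 of 37 members were called (0.0% of all genes tested were called), 17 were positive and 20 negative, the median change was -0.004, and 3 members had an unadjusted p under 0.05. Over all genes, 892 had an unadjusted p under 0.05 in limma, 15 of them with a fold change over 1.5. In astrocytes 0 of 34 were called (0.0144% of all genes tested), 28 of 34 were negative, the median change was -0.208 beside 0.0007 over all genes, and 10 members (29.4%) had an unadjusted p under 0.05, beside 790 of all genes (5.71%), 43 of them with a fold change over 1.5. The largest astrocyte difference was that of Ifit1, whose protein binds viral RNA caps, at -0.50 ± 0.14 (SE, adjusted p = 0.85), with 2.42, 2.88 and 3.14 in DMSO and 2.23, 2.46 and 2.25 with Nec-1s. The values of Stat2, Irf9 and Irf7 were -0.00, 0.06 and 0.03 in microglia and 0.00, -0.15 and -0.24 in astrocytes, none of them called.

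T/5z raised 15 of 37 members in microglia and lowered 2. Over all genes 11.1% were called higher and 13.3% lower. The median member change was 0.27 beside -0.06 over all genes, and 24 of 37 were positive. The raised members included every IFIT and ADP-ribosylation gene, while the ISGF3 subunits and Irf7 were not called.

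The 5 largest rises were those of Parp14, Ifit1, Rsad2, Cmpk2 and Helz2. Parp14, a mono-ADP-ribosyltransferase (chromosome 16, 35832874 to 35871544, minus strand), stood at 4.73, 4.65, 4.57 and 4.33 in DMSO and at 6.55, 6.51, 6.45 and 6.73 in T/5z, a change of 1.99 ± 0.10 (SE, n = 4 pairs; limma, Benjamini-Hochberg adjusted p = 5.53e-06). Ifit1 (chromosome 19, 34640871 to 34650009, plus strand) stood at 3.80, 3.73, 3.73 and 3.27 in DMSO and at 5.42, 5.50, 5.63 and 5.76 in T/5z, a change of 1.94 ± 0.13 (SE, limma adjusted p = 2.09e-05). Rsad2, which encodes viperin, an enzyme that makes a chain-terminating nucleotide (chromosome 12, 26442746 to 26456452, minus strand), stood at 4.08, 4.01, 4.13 and 3.62 in DMSO and at 5.53, 5.66, 5.87 and 5.86 in T/5z, a change of 1.77 ± 0.12 (SE, limma adjusted p = 1.89e-05). For each of these 3 genes the lowest T/5z library was above the highest DMSO library. Cmpk2, the mitochondrial nucleotide kinase encoded beside Rsad2, rose by 1.66 ± 0.07 and the helicase gene Helz2 by 1.42 ± 0.08 (SE, limma adjusted p = 3.32e-06 and 7.22e-06).

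By role, all 3 IFIT genes (Ifit2 1.09, Ifit3 0.75) and all 3 genes of the ADP-ribosylation group (Parp9 1.07, Dtx3l 0.97) rose. PARP9 and DTX3L act together as a ubiquitin ligase. Of 6 antiviral effectors 3 rose, Samd9l, a restriction factor of poxviruses, by 1.19 beside Rsad2 and Cmpk2, while Mx1, Mx2 and Bst2 were not called (0.19, 0.30 and -0.14). Of the ISG15 cycle only the modifier Isg15 itself was called, at 1.26 ± 0.17 (SE, limma adjusted p = 0.000632), with 0.27 for its protease gene Usp18 and 0.27 for its ligase gene Herc6. Of 6 RNA sensors and their partners Znfx1 (0.88) and Ifih1, which encodes MDA5 (0.75), rose and Trim25 fell. Among the oligoadenylate synthetase family, whose products activate RNase L, the catalytically inactive relative Oasl1 rose by 0.82 and Oas3 fell. Of the remaining 9 members Helz2 and Rtp4 (0.63) rose and 7 were not called. The 20 members without a call ran from -0.40 (Oas2) to 0.44 (Ifi35).

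Trim25, a ubiquitin ligase that promotes RIG-I signalling (chromosome 11, 88999376 to 89020293, plus strand), stood at 5.83, 5.86, 5.26 and 5.51 in DMSO and at 4.27, 4.18, 4.94 and 4.57 in T/5z. It fell by 1.12 on the log2 scale (SE 0.21, limma adjusted p = 0.00288), and the groups did not overlap although both were wide. Oas3 (chromosome 5, 120753098 to 120777661, minus strand) stood at 6.19, 6.15, 6.05 and 6.20 in DMSO and at 5.08, 5.09, 5.55 and 5.50 in T/5z, and it fell by 0.84 (SE 0.10, limma adjusted p = 0.000384). In the T/5z group Oas3 was higher in replicates 3 and 4 than in replicates 1 and 2. Differences for Stat2, Irf9 and Irf7 were -0.21, -0.02 and -0.24 (limma adjusted p = 0.147, 0.795 and 0.0148), all under the fold change asked for. With an ordinary per-gene variance in place of the moderated one, Trim25 had an adjusted p of 0.0647.

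**Figure D2:**
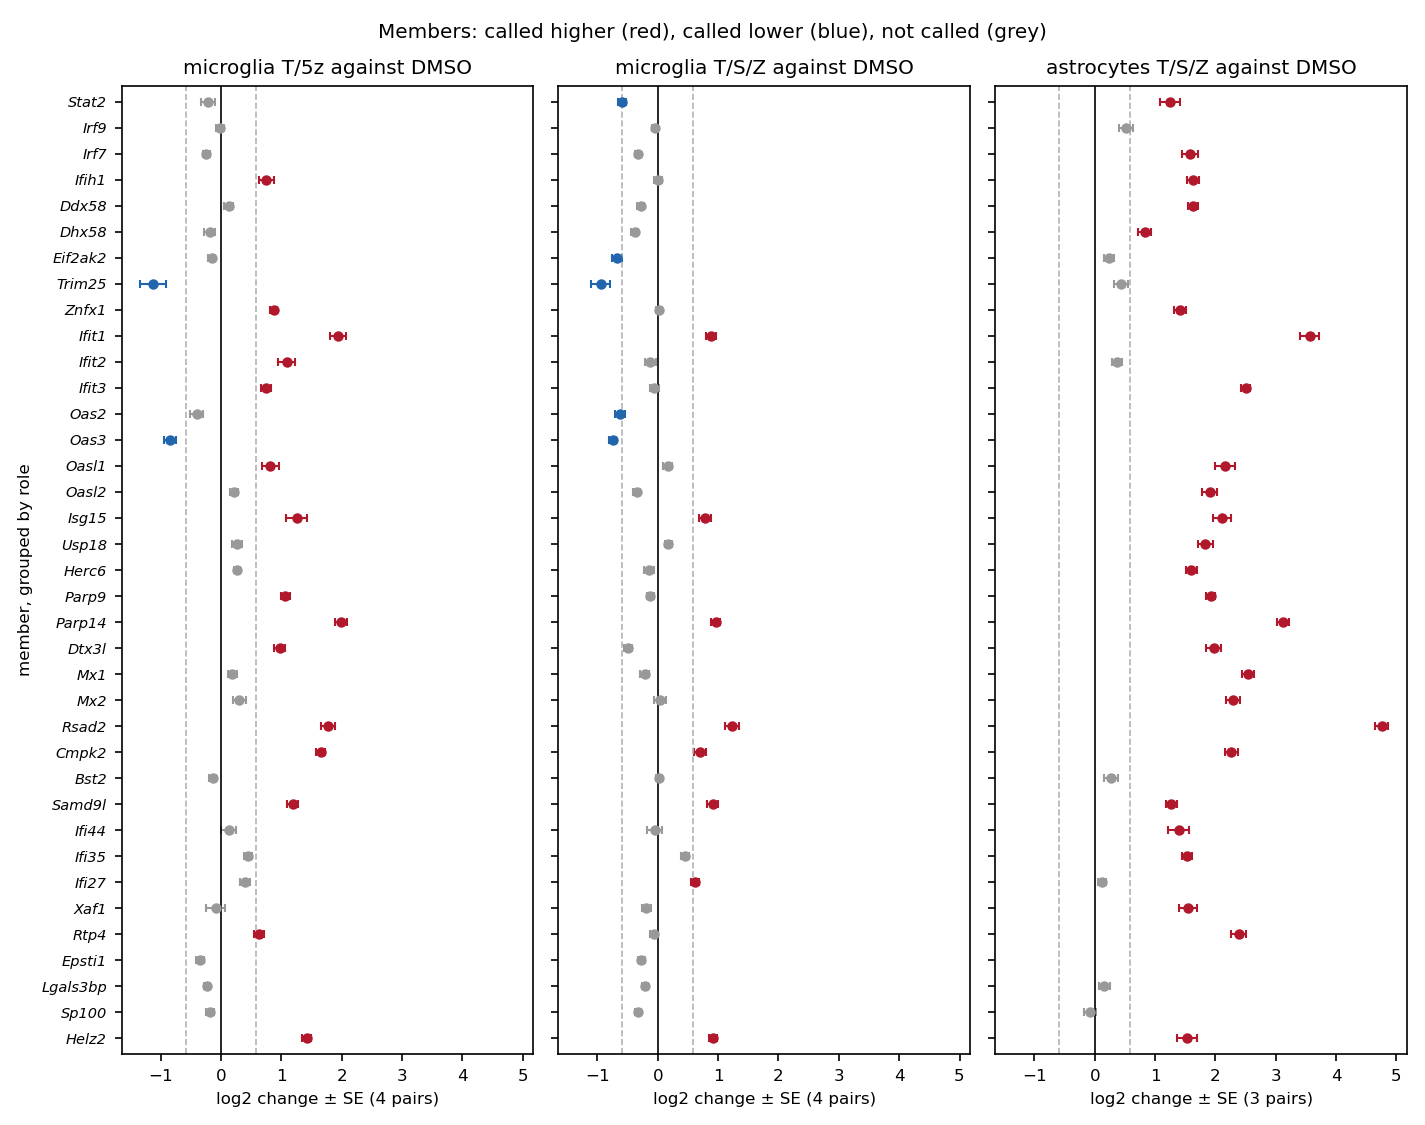
Change of each member against DMSO in the same cell type (x axis, log2 change ± SE, 4 pairs in microglia and 3 in astrocytes; y axis, members by role), with called members red (higher) or blue (lower), others grey, and dashed lines at a fold change of 1.5. The panels hold 15 and 8 members called higher for T/5z and T/S/Z in microglia and 26 for astrocytes, with the ISGF3 genes left of 0 in microglia and right of 0 in astrocytes.

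T/S/Z raised 8 of 37 members in microglia and lowered 5. Over all genes 12.2% were called higher and 17.5% lower. The median member change was -0.06 beside -0.08 over all genes, and 14 of 37 were positive, so the share of members called higher, lower or neither lay closer to that of all genes than after T/5z. The median was 0.035 with library medians centred and -0.168 under quantile normalization, so its sign is not set. The 5 largest rises were those of Rsad2, Parp14, Helz2, Samd9l and Ifit1.

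Rsad2 stood at 5.14, 5.29, 5.00 and 5.33 in T/S/Z, all above its DMSO libraries given above, a change of 1.23 ± 0.12 (SE, limma adjusted p = 6.7e-05). Parp14 stood at 5.50, 5.54, 5.66 and 5.43 in T/S/Z and rose by 0.96 ± 0.07 (SE, limma adjusted p = 1.31e-05). Helz2 stood at 3.56, 3.57, 3.39 and 3.41 in DMSO and at 4.38, 4.44, 4.49 and 4.29 in T/S/Z and rose by 0.92 ± 0.07 (SE, limma adjusted p = 1.23e-05). None of these 3 genes had overlapping groups. Samd9l rose by 0.91 and Ifit1 by 0.88, with Isg15 (0.78), Cmpk2 (0.70) and Ifi27, a small mitochondrial protein gene (0.62), the other members called higher.

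Groups whose members all rose with T/5z did not do so after T/S/Z. Of the IFIT genes Ifit1 alone was called, with -0.12 for Ifit2 and -0.06 for Ifit3. Of the ADP-ribosylation group Parp14 alone was called, and Parp9 and Dtx3l stood at -0.12 and -0.49. Of the sensors none was called higher, and Trim25 and Eif2ak2 were called lower. The 24 members without a call ran from -0.49 (Dtx3l) to 0.45 (Ifi35).

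Trim25 fell by 0.95 (SE 0.16, limma adjusted p = 0.000962), Oas3 by 0.75 (SE 0.06, adjusted p = 1.47e-05), Eif2ak2, which encodes the kinase PKR that halts translation, by 0.68 (SE 0.08, adjusted p = 0.000184), Oas2 by 0.62 (SE 0.09, adjusted p = 0.0004) and Stat2 by 0.59 (SE 0.07, adjusted p = 0.000137). Stat2, the ISGF3 subunit that carries the transactivation domain (chromosome 10, 128270576 to 128292849, plus strand), stood at 4.93, 4.79, 4.70 and 4.57 in DMSO and at 4.14, 4.27, 4.18 and 4.05 in T/S/Z. All 4 T/S/Z libraries were below the lowest DMSO library. The Stat2 call rested on a fold change just past the threshold. It was -0.52 without replicate 1 and -0.49 with library medians centred, and neither passed. Irf9 changed by -0.05 (adjusted p = 0.448) and Irf7 by -0.33 (adjusted p = 0.000251), which missed the fold change. Irf7 became a call at -0.74 under quantile normalization.

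The summed FPKM of the 9 astrocyte markers in microglia moved with the stimuli. It was 7.17 to 9.14 in DMSO, 12.1 to 22.2 in T/5z and 13.7 to 19.9 in T/S/Z. With Nec-1s it was 8.15 to 8.95 in T/5z/N and 4.88 to 6.02 in T/S/Z/N. Of the 6 astrocyte markers tested, 4 were called higher with each stimulus, and 4 were called lower when Nec-1s was added to either. Among these, Gja1, Slc1a3 and Aqp4 had means of 0.481, 0.826 and 0.636 in DMSO, below the 1 that the filter asks for. They may have been tested only because they were high with a stimulus, so their calls are given as a description. S100b, Sox9 and Slc1a2 had means below 1 in every microglial group and were not tested. All 3 fibroblast and mural cell markers tested were called higher with T/5z, and 1 was called lower when Nec-1s was added to it. Dcn, among these 3, had a mean of 0.718 in DMSO and 1.459 in T/5z and carries the same limit. Of 14 microglial markers T/5z raised 2 and lowered 2, and T/S/Z raised 1. Nec-1s raised 1 and lowered 1 of them after T/5z and raised 1 after T/S/Z. Of the oligodendrocyte lineage markers it lowered 1 after T/5z, and it raised 1 and lowered 2 after T/S/Z. Of 3 oligodendrocyte lineage markers tested, 1 was called higher and 1 lower with T/5z and 2 were called higher with T/S/Z, and the 1 endothelial marker tested was called lower with each stimulus. Their part in the member changes was not tested.

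The stimuli were also compared directly. In T/S/Z against T/5z, 0 members were called higher and 11 lower, while 5.42% of all genes were called higher and 4.42% lower. Of 37 members 30 were negative, and their median was -0.40. The lower members were Dtx3l (-1.47 ± 0.07, adjusted p = 1.63e-05), Ifit2 (-1.22 ± 0.10, adjusted p = 0.000122), Parp9 (-1.19 ± 0.09, adjusted p = 7.87e-05), Ifit1 (-1.06 ± 0.07, adjusted p = 5.92e-05) and Parp14 (-1.03 ± 0.08, adjusted p = 0.000104; SE and limma throughout), followed by Cmpk2, Znfx1, Ifit3, Ifih1, Rtp4 and Oasl1 at -0.96 to -0.66. All 3 IFIT genes and all 3 ADP-ribosylation genes were among them. Of 3 fibroblast and mural markers tested 2 were called lower in the same comparison. The summed FPKM of these markers was 9.45 to 16.3 in T/5z and 3.88 to 6.51 in T/S/Z. Of 3 oligodendrocyte lineage markers 1 was called higher, and of 14 microglial markers 1 was called higher and 1 lower. Their part in the result was not tested.

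Dtx3l (chromosome 16, 35926511 to 35939151, minus strand) showed the widest gap. It stood at 4.66, 4.57, 4.62 and 4.37 in DMSO, at 5.44, 5.47, 5.50 and 5.70 in T/5z and at 4.03, 4.13, 4.08 and 3.99 in T/S/Z. The T/5z libraries were all above DMSO and the T/S/Z libraries all below it, although the latter change, -0.49 ± 0.06 (SE, limma adjusted p = 0.000216), did not reach the fold change of a call. Rsad2, Isg15, Helz2 and Samd9l were -0.54, -0.48, -0.51 and -0.28 in this comparison and were not called. Of the ISGF3 genes and Irf7, none was called (Stat2 -0.37, Irf9 -0.03, Irf7 -0.09).

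**Figure D3:**
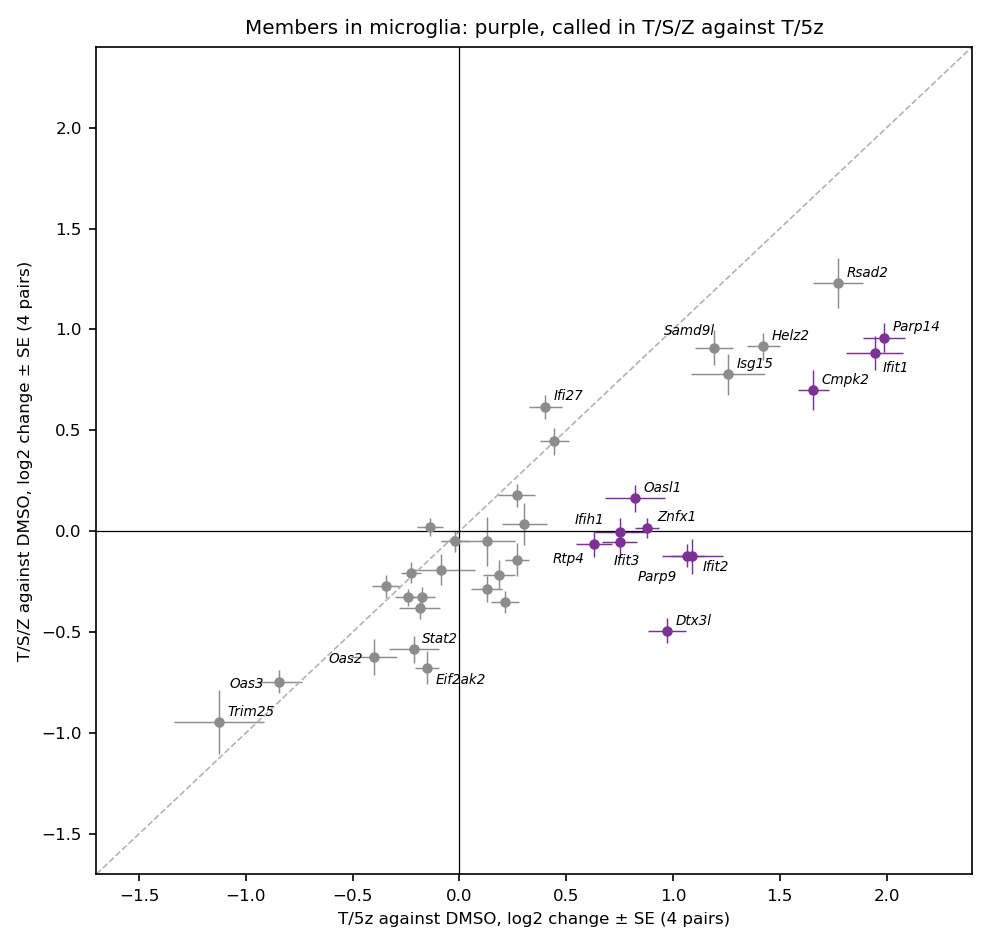
Change of each member in microglia with T/5z (x axis) and with T/S/Z (y axis), log2 change against DMSO ± SE over 4 pairs, with a dashed line where both are equal; purple marks the 11 members called in T/S/Z against T/5z. All 11 lie below the line, which their calls as lower fixed in advance, with Dtx3l at 0.97 and -0.49. Both axes share the DMSO libraries, so distance along the line is not independent.

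Nec-1s lowered 3 members after T/5z and raised none (over all genes 2.64% were called higher and 4.52% lower in T/5z/N against T/5z). They were Ifit1 (-0.64 ± 0.05, adjusted p = 4.14e-05), Helz2 (-0.61 ± 0.04, adjusted p = 1.32e-05) and Samd9l (-0.59 ± 0.05, adjusted p = 6.92e-05; SE and limma throughout). Ifit1 stood at 4.93, 4.85, 4.85 and 5.10 in T/5z/N, between its DMSO and its T/5z libraries and overlapping neither. Over the members the median was -0.12, beside 0.04 over all genes, 23 of 37 were negative, and 21 (56.8%) had an unadjusted p under 0.05, about the share of all genes (55.3%). All 15 members that T/5z had raised had a lower mean in T/5z/N than in T/5z. They were chosen for high values in these same T/5z libraries, which favours that direction, so it is given as a description. The Samd9l change was -0.55 and missed the call without replicate 3, and without replicate 1 there were 5 calls. With 5 added to FPKM before the log in place of 1, none of the 3 was called. Stat2 was 0.17, Irf9 -0.06 and Irf7 0.22, with no call.

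Much of the response was left under Nec-1s. In T/5z/N against DMSO 12 members were called higher and 1 lower (over all genes 6.16% and 6.69%), led by Parp14 (1.60 ± 0.08), Rsad2 (1.37 ± 0.11), Ifit1 (1.3 ± 0.12), Cmpk2 (1.15 ± 0.10) and Dtx3l (0.82 ± 0.08; SE, limma adjusted p at most 6.64e-05), and Trim25 was the lower one at -0.93 ± 0.10 (SE, limma adjusted p = 0.000138). Stat2 was -0.04, Irf9 -0.08 and Irf7 -0.02. For the 15 members raised by T/5z, the share of the log2 rise that was absent in T/5z/N was 15.8% to 59.5% with a median of 30.5%. It was lowest for Dtx3l and highest for Rtp4. The same T/5z libraries enter the choice of these members and both parts of the share, so it is given as a description.

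After T/S/Z, Nec-1s lowered 1 member and raised 1 (over all genes 5.35% were called higher and 6.72% lower). Rsad2 fell by 0.59 (SE 0.06, limma adjusted p = 0.000148), standing at 4.49, 4.53, 4.58 and 4.78 in T/S/Z/N, below all T/S/Z and above all DMSO libraries. Dtx3l rose by 0.64 ± 0.06 (SE, limma adjusted p = 0.000105), standing at 4.52, 4.68, 4.82 and 4.76 in T/S/Z/N, within or above its DMSO range. The Rsad2 call was lost without replicate 1 (-0.58) or replicate 2 (-0.54) and under quantile normalization, and that of Dtx3l with library medians centred (0.56). With 5 added before the log neither was called. Over the members the median was 0.01, beside 0.06 over all genes, and 22 members (59.5%) had an unadjusted p under 0.05, in both directions, beside 62.8% of all genes. Stat2 was 0.41 ± 0.06 (SE, adjusted p = 0.00076, under the fold change of a call), higher in 4 of 4 pairs, and Irf9 and Irf7 were 0.16 and 0.15.

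In T/S/Z/N against DMSO 4 members were called higher, Parp14 (0.78 ± 0.13), Ifit1 (0.77 ± 0.15), Helz2 (0.64 ± 0.07) and Rsad2 (0.64 ± 0.12; SE), and Trim25 was called lower at -1.38 ± 0.13 (SE, limma adjusted p = 9.95e-05), beside 6.2% of all genes called higher and 7.87% lower. Without replicate 4, Ifit1 was 0.56 and Rsad2 0.46 and neither was called. The ISGF3 genes and Irf7 held no call (Stat2 -0.18, Irf9 0.12, Irf7 -0.18). The share of the log2 rise absent in T/S/Z/N was 13.2% (Ifit1) to 71.3% (Ifi27) over the 8 raised members, with a median of 44.6%. As after T/5z, it is a description, because the same stimulated libraries enter the choice and both parts of the share. Trim25 had a mean of 4.67 ± 0.20 in T/S/Z and 4.24 ± 0.09 in T/S/Z/N (SD, n = 4), a difference that was not called. The other lowered members, Oas3, Eif2ak2, Oas2 and Stat2, had higher means in T/S/Z/N than in T/S/Z. All of these were chosen for low values in the same T/S/Z libraries, which favours higher means with Nec-1s. No test compared Trim25 with the others.

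Whether Nec-1s acted alike under both stimuli was tested in a single fit of the 4 stimulated groups. Of 37 members 1 was called higher and 1 lower (over all genes 3.77% and 2.7%). For Trim25 the difference made by Nec-1s was more positive with T/5z, by 0.63 ± 0.14 (SE, limma adjusted p = 0.00546), and for Dtx3l it was more negative, by -0.79 ± 0.10 (SE, limma adjusted p = 6.11e-05). Without replicate 1 or replicate 2 the Trim25 difference was 0.58 or 0.54 and missed the fold change, and in a fit of all groups its adjusted p was 0.0528. Znfx1, Rtp4 and Ifit1 were -0.56, -0.57 and -0.53 and missed it too, and Stat2, Irf9 and Irf7 were -0.23, -0.22 and 0.07. Under Nec-1s, T/S/Z/N against T/5z/N had 0 members called higher and 8 lower (over all genes 1.8% and 1.59%), led by Ifit2 (-0.87 ± 0.06), Cmpk2 (-0.83 ± 0.09), Parp14 (-0.82 ± 0.08), Rsad2 (-0.74 ± 0.07) and Parp9 (-0.71 ± 0.05; SE, limma adjusted p at most 0.0004), with Stat2, Irf9 and Irf7 at -0.14, 0.19 and -0.16. With an ordinary per-gene variance 2 of these 8 calls were left, while 2.37% of all genes were still called in either direction.

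**Figure D4:**
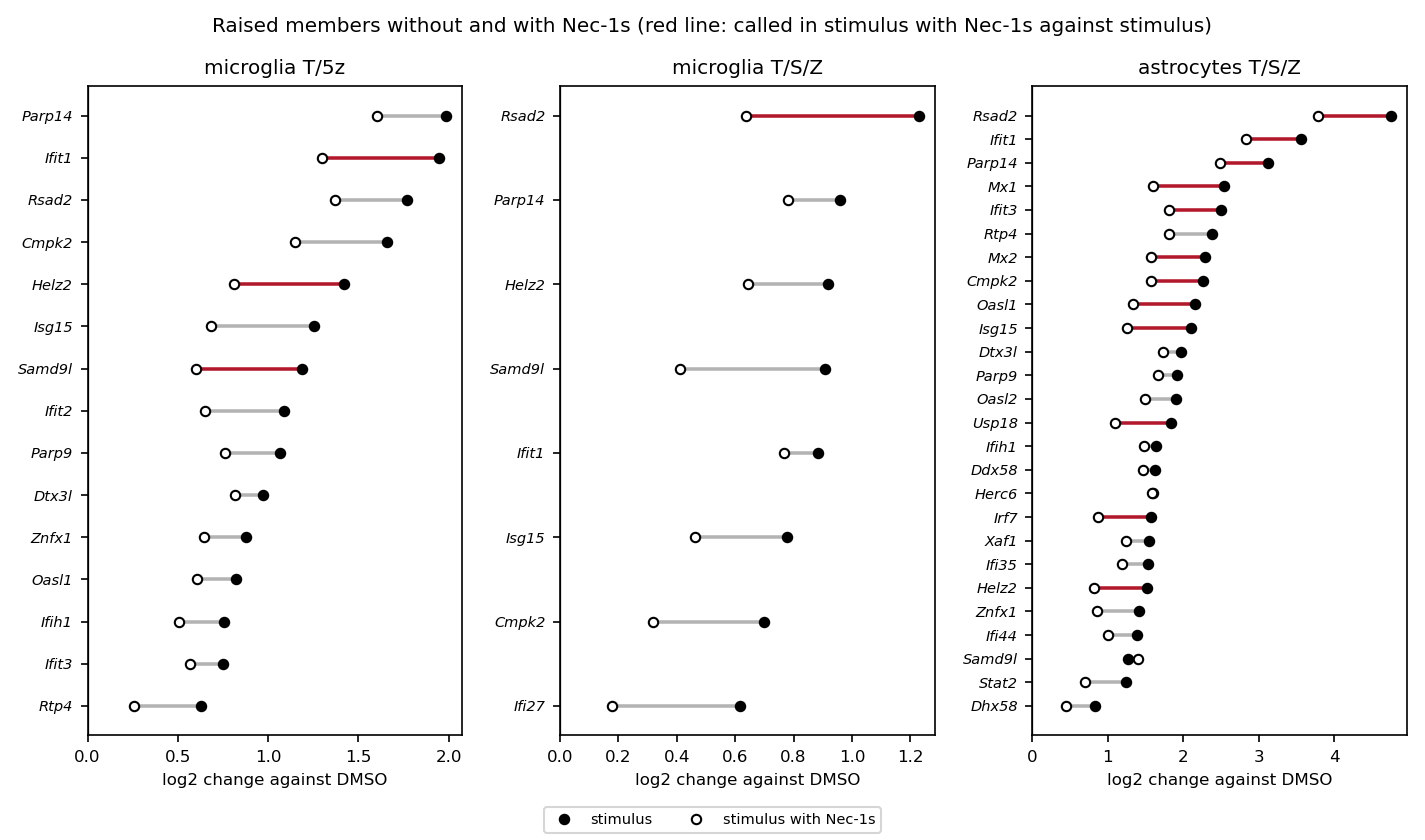
Members raised by each stimulus (y axis) and their log2 change against DMSO (x axis, its range differing by panel) with the stimulus alone (filled) and with the stimulus and Nec-1s (open); red lines mark members called in that stimulus with Nec-1s against without. In microglia 3 of 15 lines are red after T/5z and 1 of 8 after T/S/Z, and in astrocytes 12 of 26, and Samd9l in astrocytes is the one member whose open point lies right of the filled one. The members were chosen for high values in the same stimulated libraries, which favours open points on the left.

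Most members were called higher in astrocytes after T/S/Z. In DMSO the median member level was 3.14, 3.32 and 3.42 in the 3 libraries, and in T/S/Z it was 4.97, 4.64 and 4.82. T/S/Z raised 26 of 34 members and lowered 0, while over all genes 6.39% were called higher and 8.99% lower. The median member change was 1.59 beside -0.11 over all genes, and 33 of 34 were positive. Since the median of all genes shifted by -0.11, changes relative to it are larger by that amount. Helz2, Mx1, Mx2 and Oasl1 were below 1 in every astrocyte library without stimulus (0.588 to 0.998), so they passed the filter on low values through the stimulated libraries and had to differ from DMSO. Of the other 30 members 22 were called higher, with a median change of 1.56.

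Rsad2 stood at 1.29, 1.59 and 1.48 in DMSO and at 6.34, 6.16 and 6.13 in T/S/Z, a change of 4.75 ± 0.11 (SE, n = 3 pairs; limma, Benjamini-Hochberg adjusted p = 3.5e-07). Ifit1 stood at 2.42, 2.88 and 3.14 in DMSO and at 6.48, 6.32 and 6.33 in T/S/Z, a change of 3.56 ± 0.15 (SE, limma adjusted p = 6.97e-06). Parp14 stood at 1.68, 1.74 and 1.72 in DMSO and at 5.00, 4.67 and 4.84 in T/S/Z, a change of 3.12 ± 0.10 (SE, limma adjusted p = 2.05e-06). No library of either group came near the other for these 3 genes. Among the members that reached 1 without stimulus they were followed by Ifit3 at 2.50 ± 0.07 (SE, limma adjusted p = 1.13e-06). Mx1, a GTPase against influenza viruses that is defective in most inbred laboratory mice, stood 2.54 above DMSO. Its rise was fixed by the filter, so it is not ranked with them.

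All 3 genes of the ISG15 cycle rose (Isg15 2.11, Usp18 1.83, Herc6 1.60), as did all 3 ADP-ribosylation genes (Dtx3l 1.97, Parp9 1.92). Of the oligoadenylate synthetase relatives Oasl2 rose (1.90), and of the antiviral effectors Cmpk2 (2.26) and Samd9l (1.27) rose beside Rsad2. Oasl1 (2.16), Mx1 and Mx2 (2.29) were also called, but their rises were fixed by the filter and are not counted by role. Of the sensors Ifih1, Ddx58 (RIG-I) and Znfx1 rose by 1.63, 1.63 and 1.41, and Dhx58 (LGP2) by 0.83, while Trim25 (0.43) and Eif2ak2 (0.23) were not called. Of the remaining members Rtp4, Xaf1, Ifi35 and Ifi44 rose by 1.39 to 2.38, and Helz2 (1.53) was called with the same limit as Oasl1. Stat2 rose by 1.25 ± 0.16 and Irf7 by 1.57 ± 0.13 (SE, limma adjusted p = 0.00121 and 0.000159), and Irf9 was 0.51 ± 0.12 (SE, adjusted p = 0.0122), under the fold change of a call. Ifit2 (0.37), Bst2 (0.27), Ifi27 (0.12), Lgals3bp (0.16) and Sp100, a nuclear body protein gene (-0.07), were the other members without a call. With an ordinary per-gene variance in place of the moderated one, 5 of these 34 members were called, and the share of all genes called in either direction was 2.03%, 281 genes against 2130.

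Markers of other cells moved with T/S/Z in the astrocyte cultures. The summed FPKM of 5 fibroblast and mural cell markers was 378 to 419 in DMSO, 84.3 to 95.2 in T/S/Z and 325 to 336 in T/S/Z/N. The sum of 14 microglial markers was 125 to 134 in DMSO, 82.8 to 88.3 in T/S/Z and 110 to 119 in T/S/Z/N. All 5 fibroblast and mural markers and 7 of 13 microglial markers tested were called lower with T/S/Z, and 5 and 2 of them were called higher with Nec-1s after it. The 1 endothelial marker in the table, Cdh5, had an FPKM of 12.0 to 12.6 in DMSO, 2.62 to 3.27 in T/S/Z and 8.66 to 9.86 in T/S/Z/N and was called lower with T/S/Z and higher with Nec-1s after it. The sum of 7 oligodendrocyte lineage markers was 100.0 to 117 in DMSO, 60.3 to 86.9 in T/S/Z and 67.9 to 71.9 in T/S/Z/N, with 2 of 7 called lower in T/S/Z, as were 2 of 9 astrocyte markers. The fibroblast, mural and endothelial markers and the called members moved in opposite directions with Nec-1s, and their part in the member changes was not tested.

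Nec-1s lowered 12 members after T/S/Z in astrocytes and raised 0, against 1.51% of all genes called higher and 1.59% lower. They were Rsad2 (-0.96 ± 0.08, adjusted p = 0.00107), Mx1 (-0.94 ± 0.09, adjusted p = 0.00213), Isg15 (-0.86 ± 0.12, adjusted p = 0.0102), Oasl1 (-0.82 ± 0.15, adjusted p = 0.0256) and Usp18 (-0.74 ± 0.08, adjusted p = 0.00392; SE and limma throughout), followed by Ifit1, Mx2, Helz2, Irf7, Ifit3, Cmpk2 and Parp14 at -0.73 to -0.64. Members had a median of -0.39, beside 0.03 over all genes, and 31 of 34 were negative. Without Helz2, Mx1, Mx2 and Oasl1, 8 of 30 were called lower. The RNA sensors held no call, and Samd9l (0.13), Eif2ak2 (0.04) and Herc6 (-0.02) stood near 0. Irf7 fell, at -0.70 ± 0.10 (SE, adjusted p = 0.00859), and Stat2 and Irf9 were -0.54 and -0.37 (adjusted p = 0.0137 and 0.0475) without a call.

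Rsad2 stood at 5.41, 5.23 and 5.11 in T/S/Z/N and Mx1 at 2.54, 2.42 and 2.44, against 3.50, 3.39 and 3.31 for Mx1 in T/S/Z and 1.00, 0.86 and 0.72 in DMSO. Both remained far above DMSO in each library, though Mx1 passed the filter only through stimulated libraries. The call of Isg15 was lost without replicate 2 (adjusted p = 0.0533) and that of Oasl1 without replicate 1 or 2 (adjusted p = 0.1 and 0.104). With any single replicate left out 8 to 10 members were called, against 12, so other calls also depended on a single replicate. With an ordinary per-gene variance 1 of the 34 members was called, and of all genes 3 (0.0217%) against 429.

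In T/S/Z/N against DMSO 25 members were called higher and 0 lower (over all genes 4.36% and 4.72%; 21 of 30 higher without Helz2, Mx1, Mx2 and Oasl1), led by Rsad2 (3.79 ± 0.12), Ifit1 (2.83 ± 0.17), Parp14 (2.48 ± 0.11), Rtp4 (1.82 ± 0.13) and Ifit3 (1.81 ± 0.11; SE, limma adjusted p at most 0.000351). Stat2 was 0.70 ± 0.16 and Irf7 0.87 ± 0.10 (SE, limma adjusted p = 0.022 and 0.00236), both called, and Irf9 was 0.14. The Stat2 call was lost without any single replicate (0.48 without replicate 1, and adjusted p = 0.0516 and 0.0543 without replicates 2 and 3). The share of the log2 rise absent in T/S/Z/N was -10.3% (Samd9l) to 46.3% (Dhx58) over the 26 raised members, with a median of 25.6%. It is a description, since the same T/S/Z libraries enter the choice of members and both parts of the share. The 26 include Helz2, Mx1, Mx2 and Oasl1, at 46.2%, 36.8%, 31.4% and 38.1%. With an ordinary per-gene variance 0 of the 34 members were called in this comparison, and of all genes 50 (0.361%) against 1257.

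Because the member median with Nec-1s alone was -0.208 in astrocytes, its effect after T/S/Z was also set against its effect without stimulus, a comparison chosen after the values had been seen. Of 34 members 0 were called higher and 5 lower (over all genes 1.76% and 1.61%). For Oasl1 (-0.89), Mx1 (-0.86) and Mx2 (-0.63) the values without stimulus were below 1 in every library, with little room to fall on this scale, so these calls are not evidence that Nec-1s acted differently with T/S/Z. The others were Rsad2 (-0.67 ± 0.15, adjusted p = 0.0333) and Cmpk2 (-0.60 ± 0.13, adjusted p = 0.0264; SE and limma throughout). Without replicate 1 or without replicate 2, 0 members were called, and without replicate 3 there were 3. Ifit1, Ifit3 and Usp18, which were called in T/S/Z/N against T/S/Z, were -0.23, -0.23 and -0.25 here and were not called. Stat2, Irf9 and Irf7 were -0.55, -0.22 and -0.46, without a call.

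The T/S/Z responses of the 34 members present in both tables were set side by side with no test across the tables, since cell type cannot be told apart from the sequencing provider that the labels give for each, and each table was normalized on its own. The exon lengths behind FPKM also differ between the tables for 29 of the 34, by up to 2.11 times, so member levels are not compared across them. Helz2, Mx1, Mx2 and Oasl1, which passed the astrocyte filter through the stimulated libraries, are left out of the counts that follow, as are all other genes below 1 in every library without stimulus in either table, which leaves 30 members and 9688 genes. Members called higher in both numbered 6 of 30, beside 2.79% of those genes. The change was more positive in astrocytes for 29 of 30, beside 53.7%, with Ifi27 the exception (0.62 in microglia and 0.12 in astrocytes). Stat2 was called lower in microglia and higher in astrocytes, as were 0.372% of those genes. It stood at 3.18, 3.76 and 3.44 in DMSO astrocytes and at 4.94, 4.61 and 4.56 after T/S/Z. In all, 9 of the 30 were lower in 4 of 4 microglial pairs and higher in 3 of 3 astrocyte pairs, namely Oasl2, Ddx58, Dhx58, Irf7, Stat2, Parp9, Dtx3l, Trim25 and Eif2ak2, beside 6.51% of those genes.

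Values for some of these members, and for Mx1, follow. Irf7 stood at 9.23 to 9.38 in DMSO microglia and at 8.91 to 8.98 after T/S/Z, and at 2.41 to 2.71 in DMSO astrocytes and 4.05 to 4.37 after T/S/Z. Mx1 stood at 3.06 to 3.19 in DMSO microglia and 2.84 to 3.03 after T/S/Z. Each of the 2 genes had microglial ranges that did not overlap and lay lower after T/S/Z, and neither was called there. In that comparison 73.6% of all genes had an unadjusted p under 0.05 in limma, so separate ranges are not read as a trait of these members. Dtx3l stood at 2.30, 2.71 and 2.48 in DMSO astrocytes and at 4.53, 4.35 and 4.52 after T/S/Z, and Trim25 at 3.10, 2.92 and 3.28 and then 3.76, 3.37 and 3.47.

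The interferon pathway around the members was followed through fixed lists. Of 25 interferon ligands and receptors 6 were in the microglial table and 5 in the astrocyte table, and no interferon-α gene was among those used. Ifnb1, which encodes interferon-β, was in the microglial table alone. It stood at 0.24, 0.31, -0.23 and 0.09 in DMSO, at 0.70, 0.93, 0.92 and 0.42 in T/5z and at 1.57, 1.06, 1.88 and 1.97 in T/S/Z, values close to the bottom of the scale (a value below 0 is possible only because the table had been adjusted after the log). Ifnb1 reached 1 in the 4 T/S/Z libraries alone and so passed the filter on low values only through the group where it is high, and its differences are given as values. Against DMSO, T/5z stood 0.64 higher and T/S/Z 1.52 higher, and T/S/Z stood 0.88 above T/5z, with no overlap between the 3 groups.

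With Nec-1s, Ifnb1 stood at 0.15, 0.49, 0.03 and 0.10 in T/5z/N and at 0.71, 0.41, 0.97 and 0.73 in T/S/Z/N. Nec-1s made a difference of -0.55 to T/5z and of -0.92 to T/S/Z. The T/S/Z/N libraries were above all DMSO libraries, with a difference of 0.60, and T/5z/N differed from DMSO by 0.09 with overlap.

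**Figure D5:**
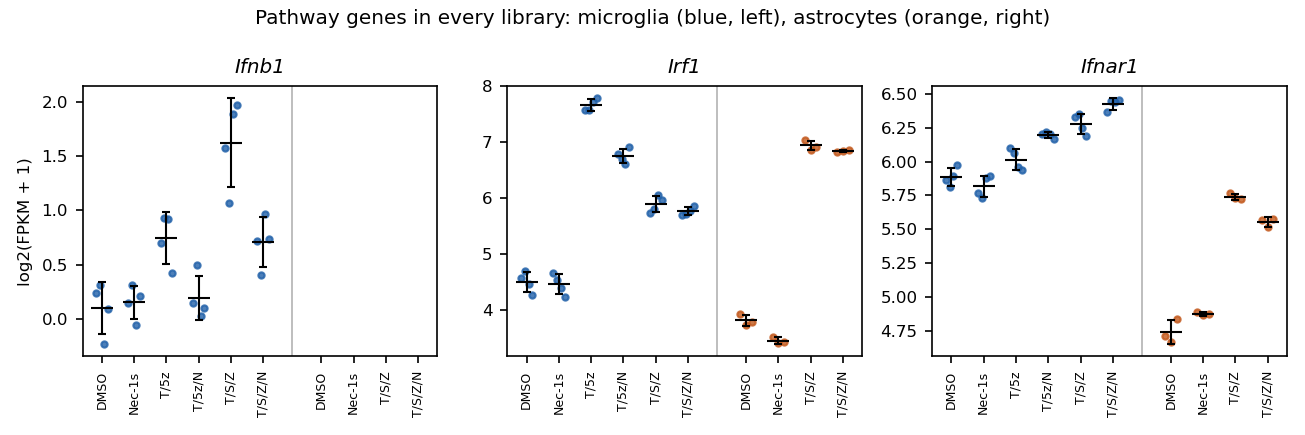
Levels of pathway genes in every library (y axis, log2(FPKM + 1)) by treatment group (x axis), points for libraries from replicate 1 on the left and black bars for means ± SD, microglia in blue and astrocytes in orange. Ifnb1 in microglia was highest in T/S/Z (1.06 to 1.97) while Irf1 was highest in T/5z (7.57 to 7.79), and the astrocyte side of Ifnb1 is empty because that gene was not in the astrocyte table used.

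Among the JAK-STAT genes, T/5z raised Irf1 (3.16), Jak2 (1.62) and Tyk2 (1.22) in microglia, T/S/Z raised Irf1 (1.40) and Jak2 (1.27) there, and in astrocytes Irf1 (3.13) and Stat3 (0.87) were among those called higher. Irf1 encodes a factor that binds the same core letters without STAT proteins. It stood at 4.57, 4.70, 4.46 and 4.26 in DMSO, 7.57, 7.57, 7.72 and 7.79 in T/5z and 5.74, 5.81, 6.06 and 5.97 in T/S/Z, and was lower in T/S/Z than in T/5z by -1.77 ± 0.05 (SE, limma adjusted p = 3.18e-06).

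The interferon-inducible GTPases, which attack vacuoles that hold pathogens, gave more calls after T/5z than after T/S/Z. Of the 10 tested in microglia T/5z raised 8 (11.1% of all genes), led by Gbp5 at 5.31 ± 0.13 (SE), T/S/Z raised 1 (Gbp5, 1.88; 12.2% of all genes), and 9 were called lower in T/S/Z against T/5z (4.42%). In astrocytes, T/S/Z raised 11 of 11 (6.39% of all genes), led by Gbp5 (6.22), Gbp2 (4.27) and Gbp6 (4.18). Nec-1s lowered 1 of them after T/5z (Gbp5, -1.59; 4.52% of all genes), none in stimulated astrocytes (1.59%), and raised 1 after T/S/Z in microglia (Irgm2, 0.62; 5.35%), counts close to those shares in lists of this size.

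The NF-κB feedback genes, set beside the members as targets of the other arm of TNF signalling, gave a call for most genes with either stimulus. Of 12, T/5z raised 10 and T/S/Z raised 12 in microglia and 11 in astrocytes, against 11.1%, 12.2% and 6.39% of all genes, with Traf1 at 4.79 and 5.10 and Tnfaip3, which encodes the ubiquitin-editing enzyme A20, at 3.41 and 4.55 in microglia. In T/S/Z against T/5z 3 were called higher (Nfkbiz 1.5, Rel 1.31, Tnfaip3 1.14) and 0 lower (5.42% and 4.42% of all genes). In microglia Nec-1s lowered 5 under each stimulus (4.52% of all genes for T/5z, 6.72% for T/S/Z), with Nfkbiz at -2.43 and Tnfaip3 at -2.05 after T/S/Z, where it also raised Bcl3 (0.65), and it lowered Nfkbiz (-1.40) and Nfkbia (-0.60) in stimulated astrocytes (1.59% of all genes).

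Upstream sensors and adaptors held calls in both directions in microglia, as all genes did. T/5z raised 3 of 17 and lowered 5 (11.1% and 13.3% of all genes), led by Ikbke, a kinase of IRF3, at 2.39, and the endosomal DNA receptor Tlr9 at -2.04, the factor Irf8 at -1.87 and Tlr4 at -1.77. T/S/Z raised 4 and lowered 5 (12.2% and 17.5% of all genes), with Tlr9 at -2.37, Tlr4 at -1.90 and Ticam2 at -1.62. With Nec-1s added, Tlr9 rose by 1.56 (T/5z) and 1.54 (T/S/Z). Il10rb, Ifngr1, Ifngr2 and Ifnar1, receptor subunits, rose in T/S/Z astrocytes by 1.20, 0.96, 1.62 and 1.00. In astrocytes, T/S/Z raised 5 of 13 and lowered 0 (6.39% and 8.99% of all genes), among them Irf5 (1.89), Myd88 (1.82) and Zbp1 (1.78). Of 10 negative regulators, T/5z raised 3 and lowered 1, T/S/Z raised 3 and lowered 1 in microglia and raised 3 in astrocytes, beside the same shares of all genes, and Socs3, an inhibitor of JAK kinases, stood 3.75 above DMSO in T/5z microglia and 4.64 above it in T/S/Z.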

How the data were processed

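RNA-seq values were deposited as log2(FPKM + 1) per gene, which the authors made from alignments with OmicSoft Array Studio 10.1.1.3 and scaled so that libraries share an upper quartile. The 75th percentile was 4.11 to 4.16 in microglia and 4.73 to 4.74 in astrocytes. Per the labels, 1 company made the libraries of microglia and another those of astrocytes, although the methods text names 1 platform for both, and the tables were normalized separately, and no test crossed the tables. In the microglial table the mean of every gene was equal between replicates (largest difference 6.67e-05), a step that is not described in the sources used here, and 187 to 1438 values per library of replicates 1 to 3 were below 0, none of them a member's. A step of this kind removes differences between replicates. If it was a plain shift on the log scale, it cancels within pairs and lowers the error only of a fit without the replicate block. Whether it also changed the spread within pairs is not known.

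The deposited log2 values were tested in limma 3.58.1 (R 4.3.3; lmFit, eBayes with trend, 2-sided) with the replicate number as a block, as the study used a paired test, on the libraries of the groups compared, with Benjamini-Hochberg adjustment over all genes. Genes needed a value of 1 or more in 4 microglial or 3 astrocyte libraries. A call was a fold change over 1.5 with adjusted p under 0.05. Because 1 is added before the log, changes of low genes are understated. Whole reads could not be recovered from the FPKM values (per library, a median of 80.7% of low astrocyte and 66.5% of low microglial values lay within 0.1 of a whole count, in microglia for replicate 4 alone), so no count test was run. The code was tested on simulated data.

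The members, the role and pathway lists and the tests were chosen with earlier results of these data known. Named members are the 5 called with the largest change in each direction per comparison, Stat2, Irf9 and Irf7, with Ifnb1 and at most 5 other pathway genes, and other genes were added where a role group or a result turned on them. Alternatives were 5 added before the log, no filter or a mean of 3, quantile normalization, centred medians, an ordinary variance, a fit on all groups, no block, and each replicate left out. Promoters came from RefSeq (GRCm38.p6), and gene positions are those of GRCm38. A total of 15 comparisons was made. One pathway gene of the lists is not reported here.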

Additional observations from a re-analysis of the deposited data

Results flagged for a closer look

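Among 222 groups of 4 libraries (37 members in 6 microglial groups), 16 had 1 library set apart by Dixon's test at the 95% level, where chance gives about 11.1. In DMSO these were Ifit1 (3.27), Ifit2 (4.68) and Ifih1 (3.74) in replicate 4, all low, and Irf9 (5.36) in replicate 1. In Nec-1s they were Isg15 (5.41) in replicate 4, Ifi44 (1.78) in replicate 1, and Ifi27 (4.3) and Eif2ak2 (3.4) in replicate 3. In T/5z/N they were Ifit3 (6.06) in replicate 3, Oas3 (5.56) in replicate 4 and Herc6 (3.1) in replicate 1. In T/S/Z they were Irf9 (5.34) and Rtp4 (6.5) in replicate 2, and in T/S/Z/N Mx2 (1.25) and Samd9l (3.41) in replicate 1 and Ifi27 (4.36) in replicate 4. All values are log2(FPKM + 1). Of the 4 set apart in DMSO, 3 were low values of replicate 4, already named above as the lowest of their group.

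In microglia the change made by Nec-1s was called different between the stimuli for Trim25 (0.63, limma adjusted p = 0.00546) and Dtx3l (-0.79, adjusted p = 6.11e-05), 1 member of 37 in each direction beside 3.77% of all genes higher and 2.7% lower. The Trim25 call was lost without replicate 1 (0.58) or replicate 2 (0.54), in the fit on all groups (adjusted p = 0.0528) and with 5 added before the log. In astrocytes, in a comparison chosen after the values had been seen, it was called different between T/S/Z and no stimulus for Oasl1 (-0.89), Mx1 (-0.86), Rsad2 (-0.67), Mx2 (-0.63) and Cmpk2 (-0.6), 5 of 34 members lower beside 1.61% of all genes. Without replicate 1 or without replicate 2, 0 members were called, and without replicate 3 there were 3. Oasl1, Mx1 and Mx2 were below 1 in every astrocyte library without stimulus, so their differences have little room on this scale to show an effect without stimulus.

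After T/S/Z 9 of the 30 members that reached 1 without stimulus in both tables were lower in 4 of 4 microglial pairs and higher in 3 of 3 astrocyte pairs, beside 6.51% of the 9688 genes that did so. The change in astrocytes minus that in microglia was 2.47 for Dtx3l, 2.25 for Oasl2, 2.04 for Parp9, 1.91 for Ddx58, 1.9 for Irf7, 1.83 for Stat2, 1.38 for Trim25, 1.21 for Dhx58 and 0.91 for Eif2ak2 on the log2 scale. It was 2.75 for Mx1, which is not counted, because it passed the astrocyte filter only through the stimulated libraries and its rise there was fixed by that. These differences were not tested, because cell type cannot be told apart from the sequencing provider given in the labels.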

How the results depend on the processing

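Counts of members called were within 1.5 times the reported count in 165 of 190 alternative fits. With 5 added before the log there were 8 calls in T/S/Z against DMSO (13 reported), 0 for the Nec-1s comparison after T/5z (3) and 0 for that after T/S/Z (2), 3 in T/S/Z/N against DMSO (5), 1 in the microglial comparison of Nec-1s effects (2), 7 in astrocyte T/S/Z/N against T/S/Z (12) and 2 in the astrocyte comparison of Nec-1s effects (5). With an ordinary per-gene variance there were 2 in T/S/Z/N against DMSO, 2 in T/S/Z/N against T/5z/N (8), 5 in astrocyte T/S/Z (26), 1 in T/S/Z/N against T/S/Z, 0 in T/S/Z/N against DMSO (25) and 1 in the comparison of Nec-1s effects. Quantile normalization and centred medians each gave 1 in microglial T/S/Z/N against T/S/Z, the fit on all groups 1 in the microglial comparison of Nec-1s effects, and a mean filter of 3 gave 3 in the astrocyte one. With single replicates left out the counts ranged over 2 to 5, 1 to 2, 3 to 5 and 2 to 4 in T/5z/N against T/5z (5 without replicate 1), T/S/Z/N against T/S/Z (1 without replicate 1 or 2), T/S/Z/N against DMSO (3 without replicate 4) and the microglial comparison of Nec-1s effects (4 without replicate 1), and over 8 to 10 and 0 to 3 in the astrocyte comparisons of T/S/Z/N with T/S/Z and of Nec-1s effects. The median member change in microglial T/S/Z was -0.168 under quantile normalization and 0.035 with centred medians, so its sign is not set. Of the changes of named members 81 fits lost a call, 2 gained one and 0 changed sign. The cause was not tested.

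Whether the replicate numbers pair the libraries could not be checked in microglia, where equal gene means over replicates force the deviations of same-numbered libraries to sum to 0. In astrocytes these deviations correlated at -0.14 to 0.41 (over 0.1 in 5 of 18 pairs). Without the replicate block the counts were the same in all 15 comparisons, for example 17 in T/5z, 13 in T/S/Z and 26 in astrocyte T/S/Z, which in microglia says nothing of the pairing, since differences between replicates had been removed. Depth is unknown for microglial replicates 1 to 3, which limits what can be said of low genes such as Ifnb1.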
